A study of Mus musculus with 42 samples.

Results

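The Ifi200 family is a cluster of interferon-inducible genes on mouse chromosome 1, and its members were chosen by symbol after their signals had differed between Nur77-deficient (KO) and wild-type (WT) macrophages in these libraries. The list held 10 symbols, Ifi202b, Ifi203, Ifi204, Ifi207, Ifi209, Ifi211, Ifi213, Mndal, Aim2 and Pyhin1. RefSeq gives Pyhin1 as a synonym of Ifi209, so the 10 symbols stand for 9 distinct genes of the 21000 protein-coding genes with a curated RefSeq transcript. The 4 other family genes, Ifi205, Ifi206, Ifi208 and Ifi214, serve as neighbours for comparison.

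The cells were bone marrow-derived macrophages, grown for a week in medium with L929 supernatant from marrow of male mice labelled C57Bl6/J. WT cells came from littermates. KO cells came from mice that lack Nur77, the nuclear receptor encoded by Nr4a1, in the whole body after CMV-Cre had deleted the loxP-flanked gene. The genotype label of the KO libraries names cre, whereas the methods describe mice bred free of Cre, and a part of Cre in any difference between KO and WT was not tested. Macrophages of both genotypes were harvested before (0 h) or after 1 or 18 h with 100 ng/ml of the bacterial endotoxin lipopolysaccharide (LPS). Chromatin was immunoprecipitated for RNA polymerase II (Pol II) and for H3K27ac, the acetylated form of histone H3 found at promoters and enhancers in use, with 3 libraries per genotype, time and antibody (36 libraries), and 1 input library without antibody was made per genotype and time (6 libraries). The methods speak of biological replicates, and neither they nor the labels say which libraries came from separate animals or cultures, so p-values measure the spread between these libraries.

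Proteins of this family carry a HIN domain that binds DNA, mostly behind a pyrin domain that recruits partners. AIM2 senses DNA in the cytosol and assembles an inflammasome that activates caspase-1. IFI204 also senses DNA and signals through STING, and p202, the product of Ifi202b, lacks the pyrin domain and restrains AIM2. The genes are induced by type I interferon, which macrophages make after LPS, and the level of Ifi202b is known to differ between inbred mouse strains, with a low level in C57BL/6 mice.

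The 9 genes span 562.2 kb of build mm10. Aim2 lies on the plus strand at chr1:173420604-173466040. Ifi213 (chr1:173573956-173599272, minus strand), Ifi209 (chr1:173630859-173647928, plus strand), Ifi207 (chr1:173723427-173741809, minus strand) and Ifi204 (chr1:173747293-173766919, minus strand) follow. Mndal (chr1:173857220-173880187), Ifi211 (chr1:173896341-173913046), Ifi203 (chr1:173920400-173942672) and Ifi202b (chr1:173962569-173982844) close the cluster, all on the minus strand.

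Promoter windows of 250 bases before to 50 bases after a gene's start (RefSeq, GRCm38.p6, the assembly behind mm10) were available for 8 of the 9 genes, and Ifi204 had no entry. The letters GAAANNGAAA, where N is any base, resemble the interferon-stimulated response element and were searched on both strands. They were found in 5 of these 8 genes (Ifi213, Ifi207, Mndal, Ifi211 and Ifi203) and in 4 of the 4 other family genes, against 3.44% of 32851 promoter windows. The exact letters GAAATCGAAA were found in 7 of the 12 family genes with a window and in 16 of the 32851 windows (0.0487%). The 100 bases before the start are shown 5′ to 3′ for the 5 members with a match and for Ifi202b, Aim2 and Ifi209, which have none in their windows. Capitals mark the match.

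Ifi203: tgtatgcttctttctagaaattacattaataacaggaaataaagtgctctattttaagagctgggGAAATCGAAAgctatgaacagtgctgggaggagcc

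Mndal: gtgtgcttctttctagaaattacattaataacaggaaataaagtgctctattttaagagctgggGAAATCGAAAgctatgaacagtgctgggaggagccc

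Ifi211: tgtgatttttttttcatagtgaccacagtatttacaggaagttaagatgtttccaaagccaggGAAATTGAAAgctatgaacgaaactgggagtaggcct

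Ifi207: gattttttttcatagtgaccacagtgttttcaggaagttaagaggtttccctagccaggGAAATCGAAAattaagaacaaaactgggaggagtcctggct

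Ifi213: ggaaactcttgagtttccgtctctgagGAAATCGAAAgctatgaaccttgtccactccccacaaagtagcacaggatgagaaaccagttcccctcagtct

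Ifi209: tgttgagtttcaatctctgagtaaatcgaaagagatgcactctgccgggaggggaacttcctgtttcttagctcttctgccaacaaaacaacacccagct

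Aim2: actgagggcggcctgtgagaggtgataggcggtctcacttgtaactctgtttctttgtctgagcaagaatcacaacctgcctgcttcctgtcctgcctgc

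Ifi202b: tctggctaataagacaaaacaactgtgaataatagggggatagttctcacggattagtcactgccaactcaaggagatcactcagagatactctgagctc

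These stretches lie on chromosome 1 at chr1:173942493-173942592 (Ifi203, its entry with a match), chr1:173880188-173880287 (Mndal, the first of its entries), chr1:173913047-173913146 (Ifi211), chr1:173741810-173741909 (Ifi207), chr1:173599273-173599372 (Ifi213), chr1:173630759-173630858 (Ifi209), chr1:173420504-173420603 (Aim2) and chr1:173982845-173982944 (Ifi202b). Ifi209 and Aim2 read on the plus strand and the others on the minus strand. The match began 35, 36, 37 and 41 bases before the start in Ifi203, Mndal, Ifi211 and Ifi207, and 73 bases before it in Ifi213. Among the 4 other genes it began 40, 58 and 79 bases before the start in Ifi206, Ifi208 and Ifi214, and 134 bases before it in Ifi205.

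Other motifs were found in few of these windows. The letters TTCNNNGAA of a GAS element, which STAT dimers bind, were found in Ifi202b alone of the 8, as TTCTCAGAA 148 bases before the start, and in 8.30% of all windows. The AP-1 letters TGAGTCA or TGACTCA were found in Ifi209 (245 bases before the start) and in the second entry of Mndal (61 bases before it), and in 5.20% of all windows. The letters AAAGGTCA, bound by Nur77 as a monomer, were found in none of the 8 members' windows and in 1.51% of all windows, which says only that these letters are not in these stretches.

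The genes are also copies of each other to a different extent, which bears on where reads can be placed. Of the 50-base words in the body of Ifi211, 55.8% occurred elsewhere in the genome and 55.1% inside another family gene, most of them in Ifi204 (29.2%). The share found elsewhere was 30.7% for Ifi204, 28.6% for Ifi209, 27.2% for Ifi203, 22.2% for Mndal, 21.5% for Ifi202b, 20.3% for Ifi213, 5.11% for Ifi207 and 2.00% for Aim2. Ifi209 shared 23.6% of its words with Ifi214, whereas Ifi202b shared 1.53% with other family genes. Signals of Ifi211, Ifi204 and Ifi209 could therefore be split between copies by the aligner in places, and how reads with several matches were placed is not given in the sources used here.

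Library totals ranged from 21.73 to 36.12 M tags for Pol II in WT, 23.20 to 35.21 M for Pol II in KO, 13.51 to 31.15 M for H3K27ac in WT, 23.56 to 55.37 M for H3K27ac in KO and 25.60 to 45.31 M for the inputs. Replicate libraries correlated over genes at r = 0.986 or more, except the first KO replicate of H3K27ac at 1 h (0.935 to 0.936 with its group) and at 18 h (0.943 to 0.944). The first KO replicate at 1 h was closer to the WT libraries at 1 h (0.978 to 0.981) than to its own group, whereas KO replicates 2 and 3 at 1 h correlated with those at 0.925 to 0.930. The first KO replicate at 18 h correlated at 0.931 with KO replicates 2 and 3 at 1 h, and the other KO libraries at 18 h at 0.895 to 0.896. Within 2500 bp of the Ifi202b start both first replicates had H3K27ac (182.2 and 150.2 normalized tags), as every KO library had. No WT library exceeded 13.2 there, although WT libraries had regions around the 3′ end of the gene. Whether the time labels of these KO libraries hold could not be settled from the values, so each H3K27ac result in KO after LPS rests on labels that were not tested. The targeted gene gave Pol II values of 150.2, 143.7 and 157.3 normalized tags in WT and 73.10, 60.16 and 56.19 in KO at 0 h, 23.43, 23.00 and 22.41 against 23.47, 39.02 and 25.79 at 1 h, and was listed at 0 in all libraries of both genotypes at 18 h. Signal over Nr4a1 was thus lower in KO at 0 h and not absent. The methods do not say which bases were deleted, so these values do not check the deletion. The 8 macrophage markers were found in both genotypes, with summed Pol II values of 21492 to 48640 in WT and 24354 to 42488 in KO. The summed markers of neutrophils (0 to 39.6 and 0 to 52.1; S100a9, Elane and Mpo at 0) and T cells (135.5 to 190.2 and 144.2 to 188.3; Cd3e and Cd3g at 0) were low in WT and KO, those of dendritic cells ranged from 248.4 to 1363 and 277.2 to 1277, and the 4 fibroblast markers were at 0.

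The value of a gene, in normalized tags, is the number of tags per 10 M tags of the library that lay in enriched regions between 500 bp before its start and 500 bp past its end for Pol II, or within 2500 bp of its start for H3K27ac. A 0 means that no enriched region was found there, not that no read lay there. In such bulk samples a lower value can come from fewer cells that use a gene or from less signal per cell, and these cannot be told apart. Regions were often longer than a gene. A single Pol II region covered Ifi207 and Ifi204 in 9 of 9 WT and 7 of 9 KO libraries, and Aim2 and Ifi206 in 9 of 9 WT and 8 of 9 KO libraries. Ifi211 and Ifi203 shared a region in all 3 KO libraries and in WT replicates 1 and 2 at 18 h, and in KO replicates 2 and 3 at 0 h, so values within these pairs are not separate measurements.

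**Figure D1:**
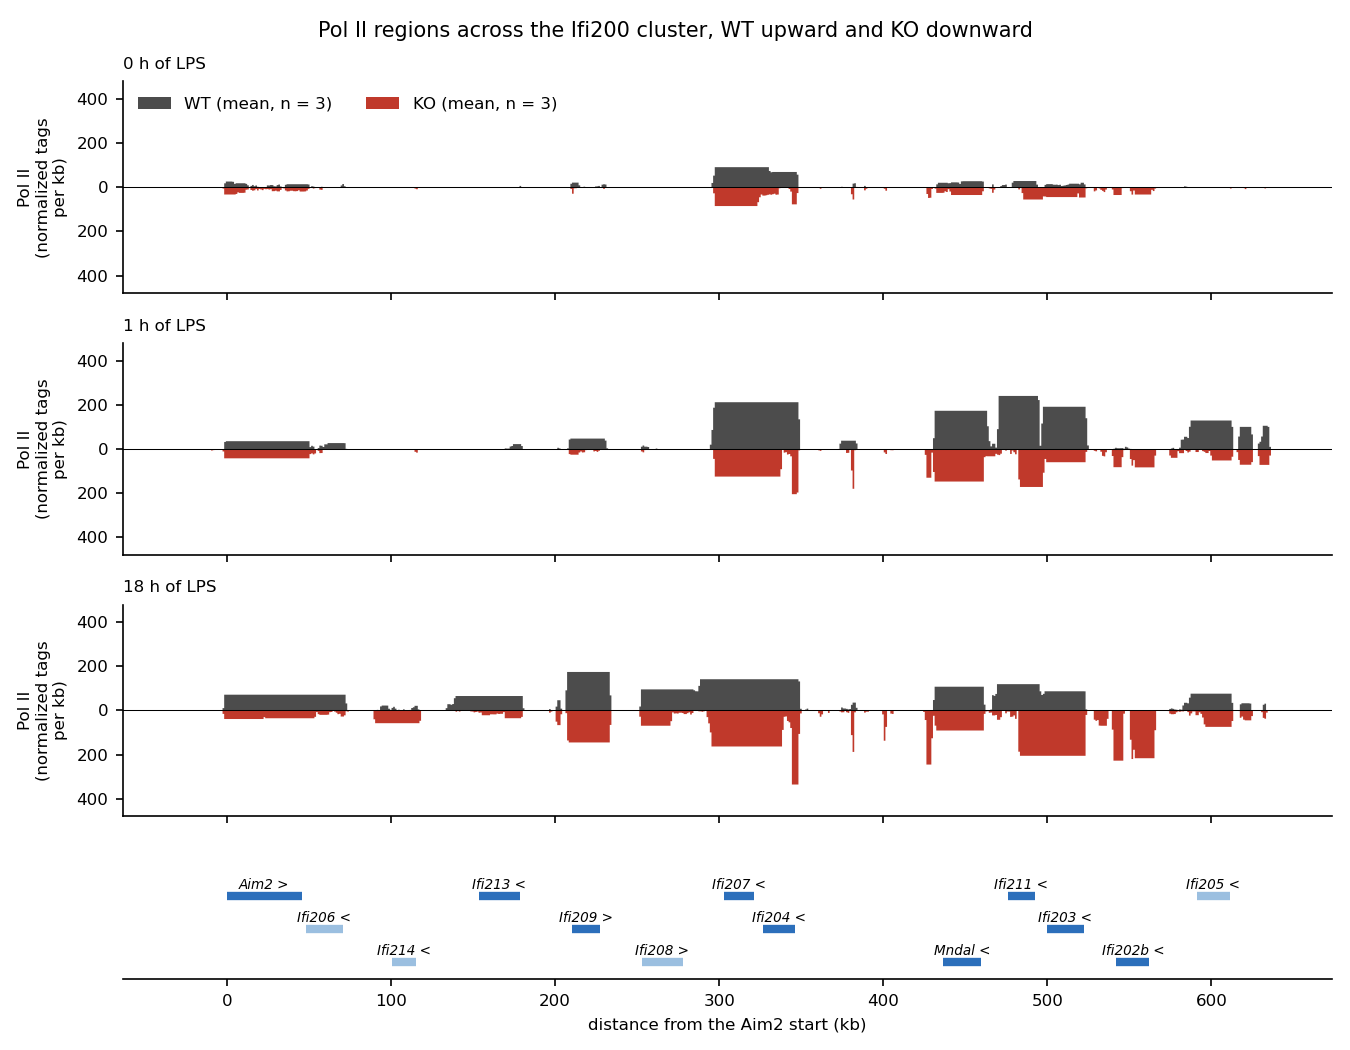
Mean Pol II signal (normalized tags per kb of 1-kb bins, 3 libraries per group) along the cluster, with WT drawn upward in grey and KO downward in red, against the distance from the Aim2 start in kb; bars give the 9 members (dark blue) and the 4 other family genes (light blue), with arrows for the strand. KO alone has broad signal over Ifi202b, and Ifi213 at 1 h has a value in WT only.

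With LPS, the family gained Pol II in both genotypes. At 1 h in WT the 8 genes with a region in every library rose. With 10 tags added, the largest changes were those of Ifi203 (log2 change 3.53 ± 0.13 SE, 11.6-fold, adjusted p = 4.0e-14 by limma), Ifi213 (3.20 ± 0.12) and Ifi211 (3.19 ± 0.16). In plain means Ifi213 went from 9.26 to 166.1 normalized tags and Ifi203 from 380.1 to 4500, so their order depends on the added tags. At 18 h in WT, and at 1 and 18 h in KO, 8 of 8 such genes rose. Ifi202b in WT and Ifi213 in KO, listed at 0 in all libraries at 0 h, entered a test only where they had regions after LPS (Ifi202b at 1 h, Ifi213 at 18 h), so those changes are given as values. With each region counted whole at its midpoint, 6 of 7 and 4 of 6 tested members were called in WT at 1 and 18 h and 5 of 8 and 5 of 9 in KO. With regions that overlap an input region left out, which removes most of the cluster, 2 members were called higher in WT at 1 h, none in WT at 18 h, and 1 member, Aim2, was called lower in KO at each time. The test was limma on log2(normalized tags + 10), two-sided, with Benjamini-Hochberg adjustment over all genes tested (12866 to 13046 per comparison), and changes are on that scale, which understates those of low genes. The comparisons at 1 and 18 h share the libraries at 0 h.

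The background was large. Of all genes tested for Pol II at 1 h, 18.6% were called higher and 68.2% lower in WT, and 20.7% higher and 61.7% lower in KO. At 18 h 33.2% were higher and 33.3% lower in WT, and 28.3% higher and 42.0% lower in KO. The median of all genes shifted at 1 h by -0.82 in WT and -0.61 in KO, against medians of 2.59 in WT and 1.78 in KO over those 8 members, and by -0.0020 and -0.18 at 18 h, against 2.28 and 2.33. The 8 are not the same genes in both genotypes, since the WT set holds Ifi213 and not Ifi202b and the KO set Ifi202b and not Ifi213. These members rose while most genes fell at 1 h only on this scale, which fixes the total of each library. With libraries centred on their medians, 4766 genes were called higher and 4892 lower of 12866 at 1 h in WT. In KO 4565 were called higher and 5067 lower of 12892.

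Aim2, the inflammasome sensor, had Pol II values of 573.1, 673.2 and 667.6 normalized tags in WT at 0 h, 1802, 1712 and 1685 after 1 h, and 3377, 3454 and 3454 after 18 h. In KO the values were 593.1, 636.9 and 768.3, then 1843, 1869 and 1905, and 1602, 1588 and 1623. The genotypes overlapped before LPS, KO lay just above WT at 1 h, and at 18 h every KO library lay below every WT library, with Aim2 at 1604 ± 17.8 in KO against 3428 ± 44.6 in WT (SD, n = 3). The log2 change at 18 h came to 2.41 ± 0.08 in WT (adjusted p = 2.1e-14 by limma) and 1.26 ± 0.08 in KO (adjusted p = 1.4e-10 by limma). The KO change was 0.22 with an adjusted p of 0.179 in a window of 500 bp on either side of the start. With regions that overlap an input region left out, the KO change of Aim2 was -0.50 at both 1 and 18 h (adjusted p = 0.0120 and 0.0147 by limma), a call in the other direction. The KO level above WT at 1 h became lower by 0.16 on the log2 scale when libraries were centred on their medians.

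Ifi204, the STING-dependent sensor, had values of 938.4, 1873 and 1910 in WT at 0 h, 4685, 4223 and 4332 after 1 h, and 3617, 2602 and 2686 after 18 h. In KO they were 330.7, 368.8 and 918.6, then 2184, 2052 and 2053, and 3150, 3098 and 3204. KO lay below WT at 0 and 1 h and within the WT range at 18 h. Ifi204 rose by 1.55 ± 0.29 at 1 h and 0.97 ± 0.29 at 18 h in WT, and by 2.095 ± 0.29 and 2.68 ± 0.29 in KO (adjusted p 8.8e-05, 0.0074, 3.5e-06 and 2.5e-07 by limma). Without replicate 1 of each group the WT change at 18 h was 0.48 with an adjusted p of 0.193, and with quantile normalization 0.70 with an adjusted p of 0.0602. In a window around the start alone, KO was higher than WT by 0.15 on the log2 scale at 0 h. With each region counted whole at its midpoint, KO was higher than WT for Ifi204 by 3.22 at 0 h and 6.52 at 1 h, and the KO changes were 1.37 at 1 h and 2.23 at 18 h with adjusted p of 0.267 and 0.0876.

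Ifi207, its neighbour in the same region, carried values of 1906, 1760 and 1795 in WT at 0 h (93.9 ± 3.94 normalized tags per kb). Per kb it led the family there with Ifi204 (76.3 ± 26.7), and the 2 did not differ beyond their spread. It rose by 1.18 ± 0.10 at 1 h and 0.60 ± 0.10 at 18 h in WT, and by 0.58 ± 0.10 and 0.97 ± 0.10 in KO (adjusted p 8.7e-09, 7.0e-05, 5.7e-05 and 2.1e-07 by limma). KO overlapped WT at 0 h (1788, 1629 and 1373) and at 18 h (3133, 3043 and 3185 against 3399, 2445 and 2524), and lay below WT at 1 h, at 2417, 2299 and 2443 against 4402, 3968 and 4071. With quantile normalization the WT change at 18 h was 0.27 (adjusted p 0.106) and the KO change at 1 h 0.19 (adjusted p 0.253). With regions counted whole at their midpoints, Ifi207 was higher in KO than in WT by 5.60 at 1 h, and its KO changes had adjusted p of 0.784 and 0.695 at 1 and 18 h.

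Ifi202b, the gene of the AIM2 antagonist p202, was listed at 0 in all WT Pol II libraries at 0 and 18 h and at 36.1, 65.1 and 81.8 normalized tags at 1 h. In KO its values were 444.6, 433.1 and 521.9 at 0 h, 1295, 1258 and 1287 after 1 h, and 3671, 3657 and 3604 after 18 h. The groups did not overlap at any time, and at 1 h KO stood at 1280 ± 19.5 against 61.0 ± 23.1 in WT (SD, n = 3). With LPS, Ifi202b rose in KO by 1.44 ± 0.17 at 1 h and 2.94 ± 0.17 at 18 h (adjusted p = 3.4e-07 and 3.2e-11 by limma). With regions that overlap an input region left out, KO minus WT for Ifi202b at 1 h was -0.45 on the log2 scale.

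The KO region over Ifi202b did not follow the gene's full span. The largest Pol II region there began between 173970965 and 173973368 and ended between 173983771 and 173986062 in the 9 KO libraries. The KO input had a region there too, from between 173971012 and 173973227 to between 173983604 and 173983726. These regions cover the start and the 5′ end of Ifi202b. Around its 3′ end, a stretch at chr1:173960368-173966645 (6.28 kb) also had regions in all 3 KO and no WT library at 18 h.

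Ifi203 stood higher in KO at 0 h, where KO replicates 2 and 3 had a single region over it and Ifi211. WT values were 356.0, 395.9 and 388.5 at 0 h, 4689, 4292 and 4519 after 1 h, and 2333, 2371 and 1531 after 18 h. KO values were 809.0, 974.5 and 1097, then 1373, 1334 and 1342, and 4745, 4663 and 4780. KO lay above WT at 0 and 18 h and below it at 1 h, with no overlap at any time. The change at 1 h reached 3.53 ± 0.13 in WT and 0.50 ± 0.13 in KO, a difference of -3.03 ± 0.18 that is given as a description because the family was chosen from differences between the genotypes. The KO rise at 1 h for Ifi203 (adjusted p = 0.00177 by limma) was 0.37 with an adjusted p of 0.0538 without replicate 1, 0.35 with 0.0718 in the start window, 0.28 with 0.0653 under quantile normalization and 0.080 with 0.961 with regions counted whole at their midpoints. The KO change of Ifi203 at 18 h had an adjusted p of 0.116 under midpoint counting.

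Ifi211 had values of 429.8, 485.8 and 466.1 in WT at 0 h and 582.0, 367.7 and 399.4 in KO, which overlapped, and the last 2 of these KO libraries had a single region over Ifi211 and Ifi203. At 1 h WT reached 4464, 4153 and 4265 and KO 1904, 1895 and 1867, all below WT. At 18 h WT libraries stood at 1775, 1804 and 2883 and KO at 2312, 2310 and 2332. The WT library at 2883 is replicate 3, the only one of that group in which Ifi211 and Ifi203 lay in separate regions. Ifi211 rose by 3.19 ± 0.16 and 2.17 ± 0.16 in WT, and by 2.07 ± 0.16 and 2.37 ± 0.16 in KO, at 1 and 18 h (adjusted p 2.8e-12, 1.3e-09, 1.3e-09 and 3.0e-10 by limma). With regions counted whole at their midpoints, the WT changes at 18 h were -2.68 for Ifi211 and -2.90 for Ifi203, and Ifi211 had adjusted p of 0.0981 at 1 h in WT and 0.691 at 18 h in KO.

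Mndal rose in both genotypes and stood lower in KO after LPS. Its WT values were 559.5, 692.5 and 689.6 at 0 h, 4307, 4156 and 4132 after 1 h, and 2594, 2634 and 2685 after 18 h, and those of KO were 688.0, 666.9 and 724.9, then 3567, 3474 and 3427, and 2137, 2061 and 2170. KO overlapped WT at 0 h and lay below it at 1 and 18 h, by 0.27 and 0.31 on the log2 scale. With GENCODE gene positions, in which Mndal runs across Ifi211 and Ifi203, KO was 0.33 higher at 18 h. Mndal rose by 2.69 ± 0.07 and 2.02 ± 0.07 in WT and 2.31 ± 0.07 and 1.601 ± 0.07 in KO (adjusted p 2.5e-16, 2.8e-14, 2.2e-15 and 5.4e-13 by limma).

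Ifi209 and Ifi213 had their highest level at 18 h and were lower in KO. Ifi209 had WT values of 126.1, 182.1 and 148.1 at 0 h, 890.5, 877.9 and 898.3 after 1 h, and 3136, 3244 and 3213 after 18 h, against 41.65, 31.70 and 30.90, then 203.4, 213.2 and 158.9, and 2570, 2568 and 2600 in KO. Every KO library of Ifi209 lay below every WT library at each time, and the log2 change at 18 h came to 4.32 ± 0.12 in WT and 5.86 ± 0.12 in KO (adjusted p = 2.1e-15 and 2.4e-17 by limma). In the start window alone the KO change of Ifi209 at 1 h was -0.07 (adjusted p 0.523), and KO was higher than WT by 0.07 at 0 h. Ifi213 had WT values of 9.27, 5.82 and 12.7 at 0 h, 180.7, 173.4 and 144.2 after 1 h, and 1664, 1822 and 1868 after 18 h. In KO no library had a region at 0 or 1 h, and Ifi213 reached 550.3, 562.1 and 579.3 at 18 h. Ifi213 rose by 3.20 ± 0.12 and 6.56 ± 0.12 in WT (adjusted p = 9.2e-14 and 1.3e-17 by limma).

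**Figure D2:**
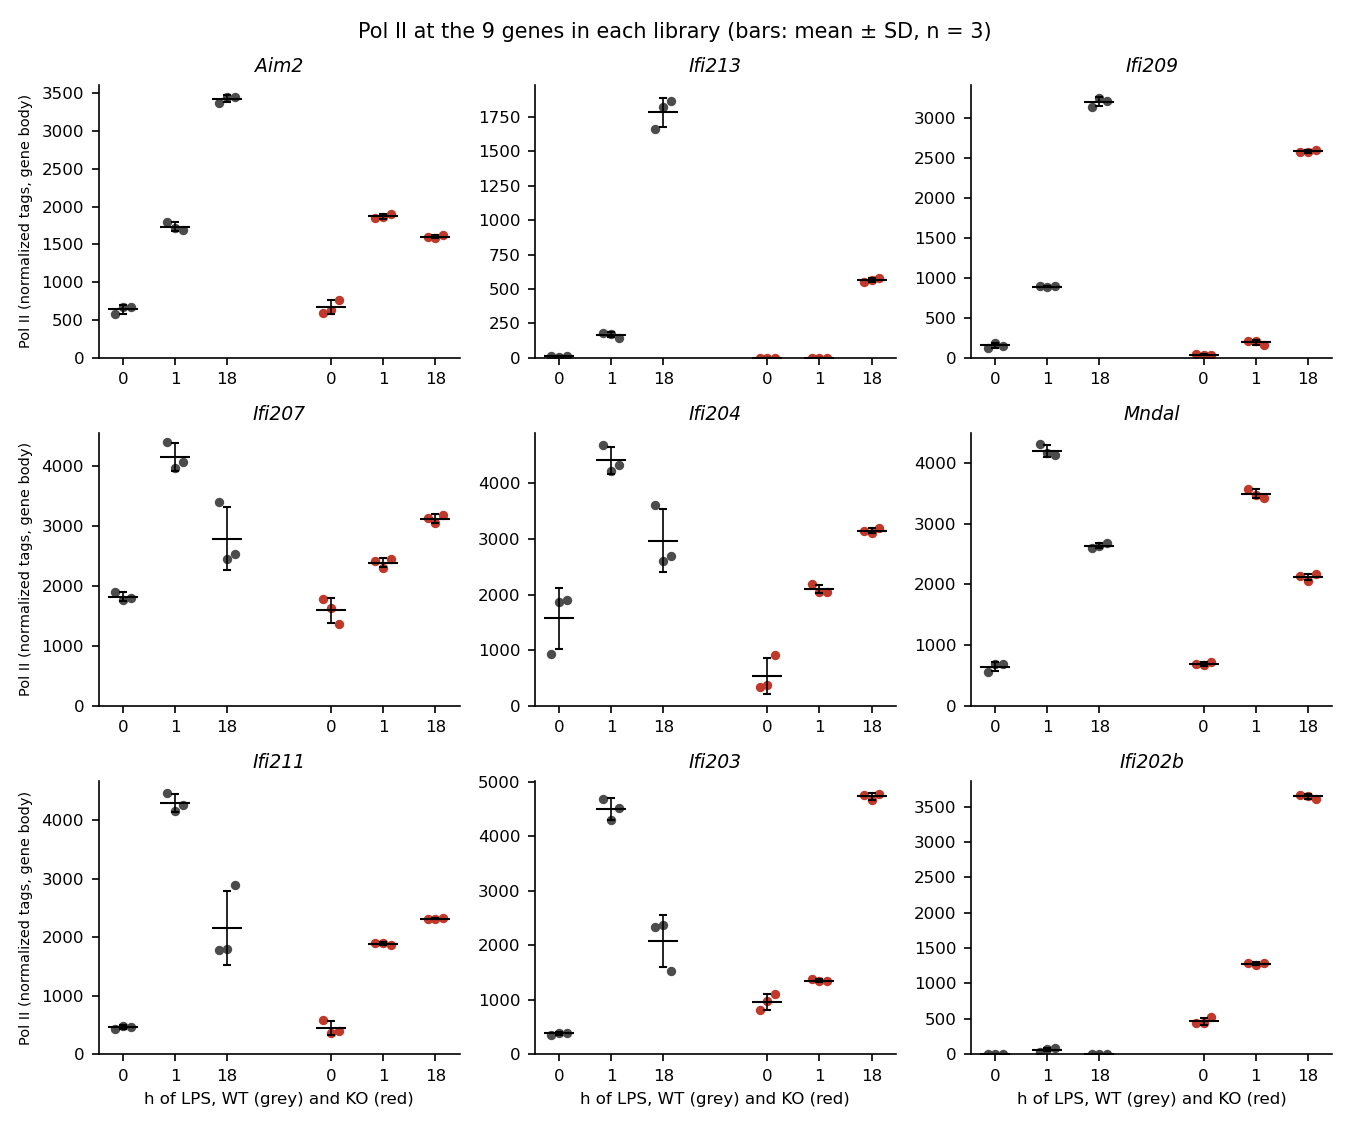
Pol II at each of the 9 genes (normalized tags from 500 bp before the start to 500 bp past the end) in each library, WT in grey and KO in red, at 0, 1 and 18 h of LPS, with bars for the mean ± SD of 3 libraries. Ifi202b is at 0 in WT at 0 and 18 h and between 3604 and 3671 in KO at 18 h, whereas Ifi213 and Ifi209 are higher in WT at each time.

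Per kb of gene the order of the levels shifted with time and genotype. In WT at 0 h Ifi207 (93.9 ± 3.94 normalized tags per kb) and Ifi204 (76.3 ± 26.7) led without differing beyond their spread, followed by Mndal (27 ± 3.17) and Ifi211 (26.0 ± 1.604), which did not differ beyond it either, Ifi203 (16.3 ± 0.91), Aim2 (13.7 ± 1.21), Ifi209 (8.42 ± 1.56), Ifi213 (0.35 ± 0.13) and Ifi202b at 0. In WT at 18 h Ifi209 had the highest mean (176.9 ± 3.06 per kb), before Ifi207 and Ifi204, which share a region (both 143.9 ± 27.3). Their libraries overlapped, with a highest value of 175.4 per kb of region in Ifi207 and Ifi204 and a lowest of 173.6 in Ifi209. In KO at 18 h Ifi203 (203.2 ± 2.59 per kb) and Ifi202b (171.3 ± 1.67) stood highest, Aim2 (34.6 ± 0.38) and Ifi213 (21.4 ± 0.55) lowest.

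Between the genotypes, members moved in both directions at once. Every KO library lay above every WT library at 2 of the 9 genes and below at 3 at 0 h, above at 2 and below at 7 at 1 h, and above at 2 and below at 4 at 18 h. Over all genes tested the shares above and below were 13.9% and 6.95% at 0 h, 45.4% and 10.5% after 1 h, and 13.8% and 29.9% after 18 h. The members were chosen from this contrast, so nothing is read from their counts. Ifi202b and Ifi203 were those above at 0 and 18 h, and Ifi202b and Aim2 at 1 h. Without replicate 1 the count below at 0 h was 5 and the count above at 18 h was 4, and with a window around the start alone they were 1 and 4.

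The change with LPS differed in size between the genotypes in both directions, which is a description for the same reason. At 1 h the KO change minus the WT change was negative by more than its SE for Ifi213 (-3.20 ± 0.17), Ifi203 (-3.03 ± 0.18), Ifi202b (-1.33 ± 0.23), Ifi211 (-1.12 ± 0.22), Ifi207 (-0.60 ± 0.15), Mndal (-0.37 ± 0.10) and Ifi209 (-0.31 ± 0.17). It was 0.05 ± 0.11 for Aim2 and 0.54 ± 0.41 for Ifi204. At 18 h it was positive for Ifi202b (2.94 ± 0.23), Ifi204 (1.72 ± 0.41), Ifi209 (1.54 ± 0.17) and Ifi207 (0.37 ± 0.15). Of these, Ifi202b, Ifi209 and Ifi207 were negative at 1 h. It was negative at 18 h for Aim2 (-1.15 ± 0.11), Ifi213 (-0.71 ± 0.17) and Mndal (-0.42 ± 0.10). The values of Ifi213 and Ifi202b depend on the 10 tags added, since WT or KO libraries without a region enter them. That of Ifi209 at 1 h leans on these tags too. Its mean went from 34.8 to 191.8 normalized tags in KO and from 152.1 to 888.9 in WT.

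**Figure D3:**
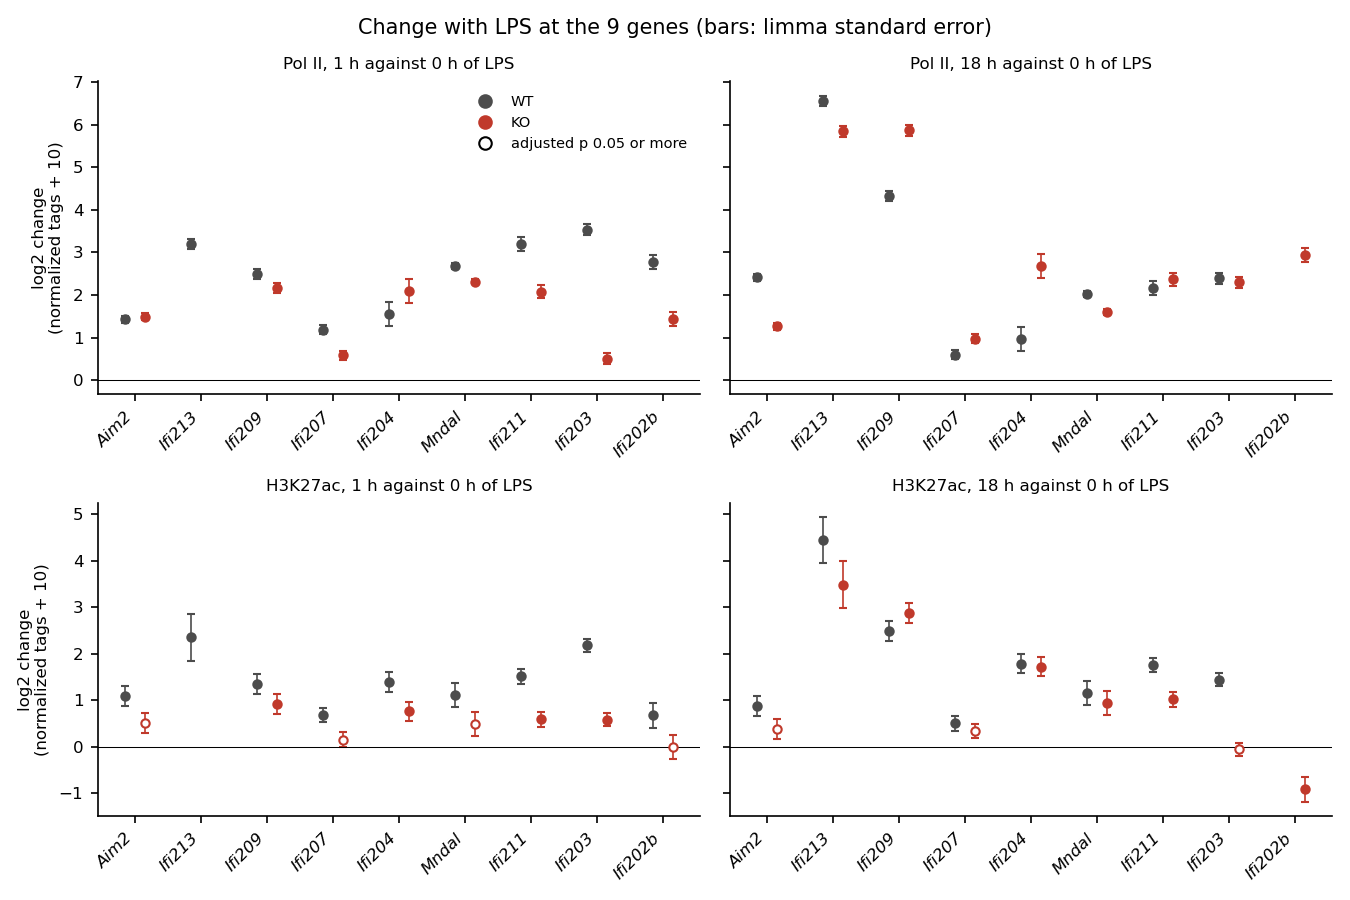
Log2 change of normalized tags + 10 with LPS (limma estimate, bars for the standard error) at the 9 genes in WT (grey) and KO (red), for Pol II and H3K27ac at 1 and 18 h against 0 h; open circles did not pass an adjusted p of 0.05, and untested genes have no point. The points of Ifi202b in WT at 1 h and Ifi213 in KO at 18 h start from libraries without a region, and their height depends on the 10 tags added. The gap between WT and KO is widest for Ifi203 at 1 h among genes drawn in both genotypes, at 3.53 against 0.50 for Pol II.

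For H3K27ac at the gene starts in WT, 8 of the 8 genes with a region in every library rose at 1 h and at 18 h, with median log2 changes of 1.37 and 1.598. In KO 4 of 8 such genes rose at 1 h (Ifi209, Ifi204, Ifi211 and Ifi203), with a median of 0.55, and at 18 h 4 of 8 rose (Ifi209, Ifi204, Mndal and Ifi211) and Ifi202b fell, with a median of 0.67. Ifi202b in WT at 1 h and Ifi213 in KO at 18 h are again given as values, since no library had a region at 0 h. With regions counted whole at their midpoints, 5 of 8 tested members were called in WT at 18 h. Of all genes tested, 25.9% were called higher and 29% lower at 1 h in WT, 23.4% and 26.5% at 18 h in WT, 20.6% and 26.2% at 1 h in KO, and 18.4% and 34.4% at 18 h in KO. The medians of all genes lay at -0.04, -0.04, -0.05 and -0.15. Whether the number of calls differs between the genotypes was not tested, and the KO groups at 1 and 18 h hold libraries that do not go together. With KO replicates 2 and 3 at 1 h left out, 6 of 8 members were called higher in KO at 1 h, Aim2 (0.78, adjusted p 0.0121) and Ifi207 (0.58, adjusted p 0.00986) among them, with the lone library assumed to vary like the other groups. With the first KO replicate at 1 h left out, 4 of 8 were.

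Of the 9 members, Ifi213 had the largest H3K27ac rise in WT at 18 h, from 21.4, 29.6 and 20.8 to 764.5, 703.9 and 702.5 normalized tags (log2 change 4.44 ± 0.50, adjusted p = 2.2e-06 by limma). In KO Ifi213 was listed at 0 before and 1 h after LPS, then stood at 20, 238.0 and 180.9 at 18 h, where the lowest value is that of the first replicate. Ifi209 rose from 232.9, 249.5 and 233.6 to 1385, 1426 and 1341 in WT at 18 h (2.49 ± 0.21, adjusted p = 1.1e-07 by limma) and from 112.9, 100.2 and 109.1 to 504.6, 1058 and 1139 in KO (2.87 ± 0.21, adjusted p = 1.9e-08 by limma). Both genes had less H3K27ac in every KO library than in any WT library at each time.

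Ifi211 carried more H3K27ac in KO. Its values were 1278, 1376 and 1250 in KO against 393.0, 596.6 and 543.7 in WT at 0 h, 2199, 1923 and 1782 against 1392, 1471 and 1530 at 1 h, and 1981, 3042 and 3062 against 1710, 1774 and 1695 at 18 h. KO thus lay above WT at each time within 2500 bp of the start. Pol II over the whole gene of Ifi211 overlapped at 0 h and was lower in KO at 1 h. The 2 windows differ, so these values do not show that the marks part at the same bases. Ifi203 had more H3K27ac in KO at 0 h (373.0, 388.3 and 361.2 against 225.8, 233.2 and 228.1) and less at 1 h (666.9, 531.5 and 502.5 against 1273, 796.7 and 1215) and 18 h (378.8, 371.9 and 329.3 against 665.1, 601.8 and 647.1). Pol II of Ifi203 at 18 h, taken over the whole gene and not the start window, lay higher in KO than in WT. With regions counted whole at their midpoints, KO minus WT in H3K27ac at 1 h was -0.15 for Ifi211, 1.13 for Ifi203 and -0.67 for Ifi202b. The changes of Ifi203 with LPS were then -0.0073 at 1 h and 1.597 at 18 h in WT and 0.57 at 1 h in KO, with adjusted p of 0.998, 0.481 and 0.819.

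Ifi202b had H3K27ac in KO before LPS, at 179.3, 224.0 and 172.8 normalized tags, and at 182.2, 202.6 and 183.8 at 1 h and 150.2, 72.79 and 80.06 at 18 h. In WT it was listed at 0 in all libraries at 0 and 18 h and at 0, 13.2 and 7.42 at 1 h. H3K27ac of Ifi202b in KO fell by 0.92 ± 0.26 on the log2 scale at 18 h (adjusted p = 0.00801 by limma) while its Pol II rose. The fall was 0.63 with an adjusted p of 0.155 without replicate 2, 0.87 with 0.125 without replicate 3 and 0.99 with 0.22 at 1 tag added. Per kb of region over the whole gene, KO libraries held 55.28, 58.14 and 58.16 normalized tags of H3K27ac before LPS. The KO input held 24.96 there. After 18 h of LPS these libraries stood at 52.79, 27.23 and 25.25 per kb, beside 19.41 in the input. Replicates 2 and 3 were thus not far above the input. Regions differ between libraries, so the same bases are not compared, and the part of the input in the fall was not tested.

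For Ifi204, H3K27ac was 475.7, 489.6 and 628.3 in WT and 564.4, 574.4 and 543.9 in KO at 0 h, and rose to 1823, 1803 and 1916 and to 1276, 2384 and 2154 at 18 h (1.79 ± 0.21 and 1.72 ± 0.21, adjusted p = 3.2e-06 and 4.3e-06 by limma). Ifi207 was lower in every KO library than in any WT library at each time, at 693.1, 725.5 and 709.8 against 1016, 1242 and 1126 at 0 h, and its change in KO was 0.15 ± 0.16 at 1 h and 0.34 ± 0.16 at 18 h (adjusted p 0.442 and 0.0783 by limma). Aim2 rose in WT by 1.08 ± 0.22 and 0.88 ± 0.22 (adjusted p = 5.4e-04 and 0.00314 by limma), and its KO changes of 0.51 and 0.39 had adjusted p of 0.0617 and 0.141. Mndal rose in WT by 1.11 ± 0.26 and 1.15 ± 0.26 and in KO by 0.95 ± 0.26 at 18 h (adjusted p 0.00192, 0.00163 and 0.00623 by limma), with 0.49 ± 0.26 at 1 h in KO (adjusted p 0.133). With regions counted whole at their midpoints, Mndal was at -3.52 in WT at 18 h (adjusted p 0.0612), and its changes at 1 h in WT and 18 h in KO had adjusted p of 0.286 and 0.557. GENCODE positions gave -0.059 for Mndal in KO at 18 h and 0.57 with an adjusted p of 0.00352 in KO at 1 h, a call that the RefSeq positions did not give. Midpoint counting gave 0.47 for Ifi207 in KO at 18 h, with an adjusted p of 0.0376. Under midpoint counting the WT changes of Aim2 had adjusted p of 0.492 and 0.604 at 1 and 18 h, and its KO change at 1 h was -1.39 (adjusted p 0.404).

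Leaving out a replicate moved several of these H3K27ac calls. In KO at 18 h, Aim2 (0.68, adjusted p 0.0241) and Ifi207 (0.47, adjusted p 7.87e-04) passed without replicate 1, and Mndal did not pass without replicate 2 (0.81, adjusted p 0.134) or 3 (0.82, adjusted p 0.0777). Leaving out the KO library that stood apart at 18 h alone gave 0.65 with an adjusted p of 0.0112 for Aim2 and 0.49 with 0.0143 for Ifi207. In KO at 1 h, Ifi211 (adjusted p 0.0598 and 0.0697) did not pass without replicate 2 or 3, Ifi209 without replicate 2 (0.0572) or Ifi204 without replicate 3 (0.0505), and Aim2 (0.0320 without replicate 3) and Mndal (0.0463 without replicate 1) passed. In WT at 18 h, Ifi207 did not pass without replicate 2 (adjusted p 0.0756) or 3 (0.0901) or under quantile normalization (0.260). In KO at 1 h, Ifi209 did not pass within 1000 bp of the start (0.30, adjusted p 0.264).

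Every KO library lay above every WT library in H3K27ac at 5 of 9 genes at 0 h, 2 at 1 h and 2 at 18 h, and below at 3, 5 and 4. The shares of all genes tested were 29.4% and 9% at 0 h, 16.0% and 13.1% after 1 h, and 6.46% and 16.5% after 18 h, and again nothing is read from the members' counts. Without the first KO replicate, the count above at 18 h was 4.

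**Figure D4:**
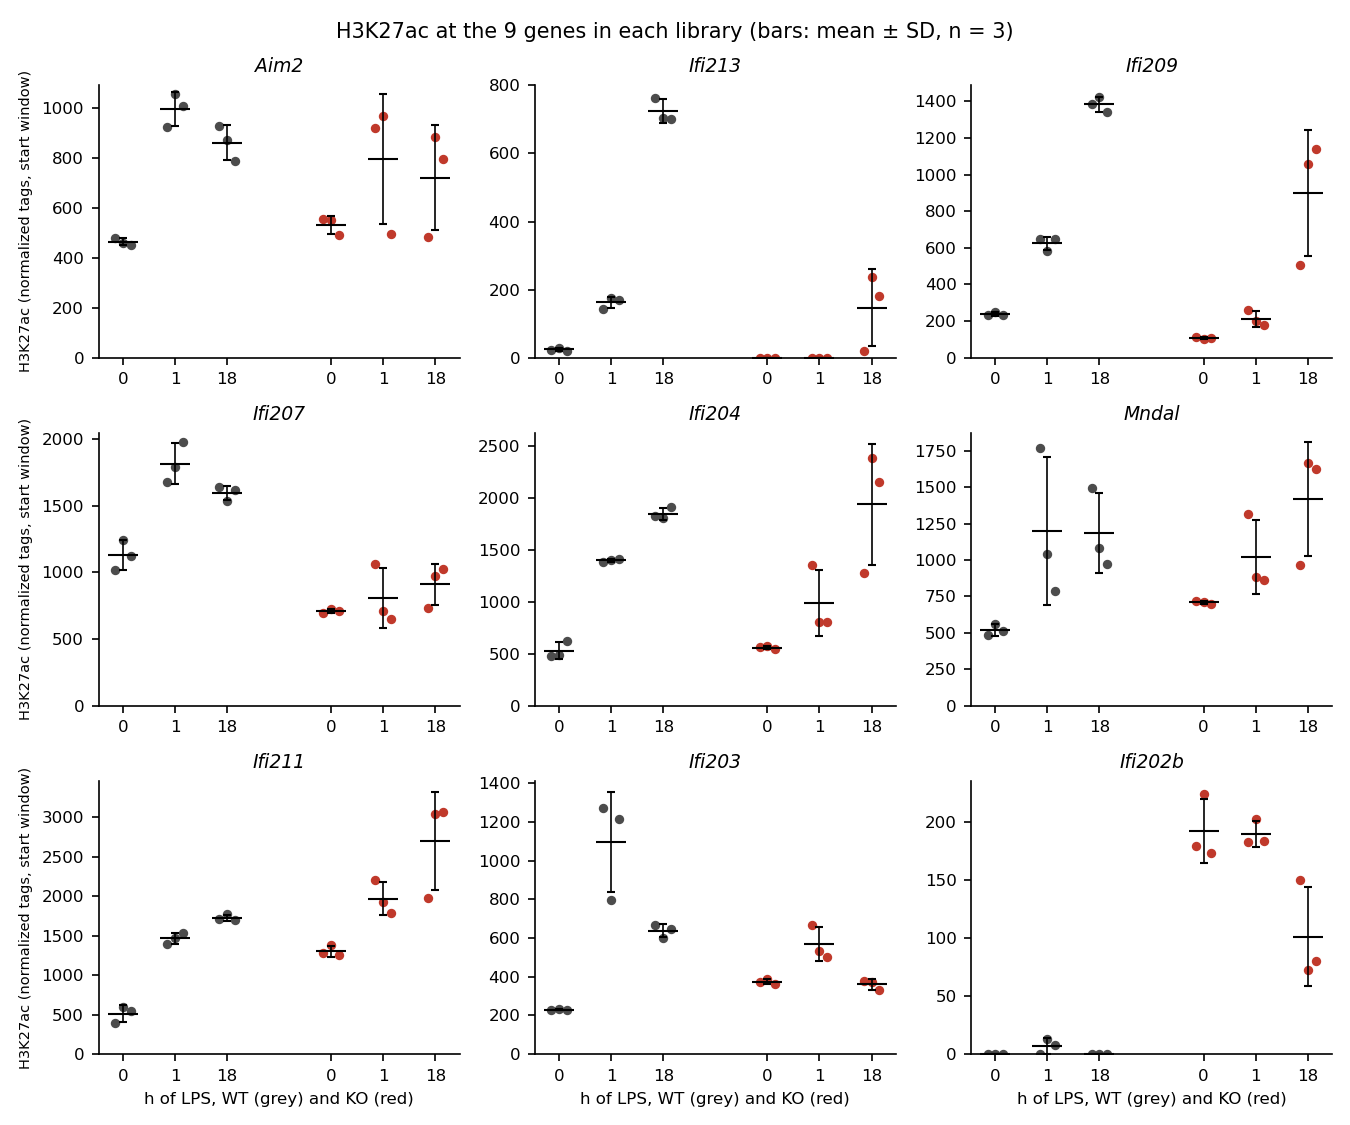
H3K27ac within 2500 bp of the start of each of the 9 genes (normalized tags) in each library, WT in grey and KO in red, at 0, 1 and 18 h of LPS, with bars for the mean ± SD of 3 libraries. Ifi211 and Ifi202b lie higher and Ifi207, Ifi209 and Ifi213 lower in every KO library than in any WT library at each time.

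The 4 other family genes had more Pol II at 18 h of LPS than before it in both genotypes. At 1 h the same held except for Ifi214 in WT, which was listed at 0, 0 and 5.88 normalized tags and was not tested. Pol II of Ifi208 at 1 h was low, at 1.290 times its input per kb of region in WT and 1.285 times in KO. Ifi206 was called higher in each comparison (log2 changes of 2.18 and 3.89 in WT and 2.35 and 3.28 in KO at 1 and 18 h, by limma), whereas Ifi208 in both genotypes and Ifi214 in WT had no region at 0 h. Pol II over Ifi205 went from 0, 12.7 and 7.67 normalized tags to 2471, 2747 and 2946 at 1 h in WT, and from 0, 8.95 and 0 to 679.2, 666.9 and 708.0 in KO, which lay below WT. Ifi206, next to Aim2, was lower in every KO library at each time (448.2, 431.5 and 437.3 against 1733, 1773 and 1773 at 18 h), and its H3K27ac was listed at 0 in KO at 0 and 1 h against 337.3, 377.2 and 344.1 in WT at 1 h. In WT at 18 h a single Pol II region covered Ifi206 and Aim2 in all 3 libraries. Both then stood at 73.8 normalized tags per kb, so these WT values are not separate measurements. Ifi214, which shares 27.4% of its 50-base words with Ifi209, was higher in every KO library at each time, at 843.9, 882.8 and 872.5 against 128.4, 151.1 and 160.6 at 18 h, opposite to Ifi209. Ifi208 stood at 1279, 1269 and 1300 in KO and at 959.3, 3246 and 3350 in WT at 18 h, where replicates 2 and 3 had a single region over Ifi208 and Ifi207.

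Genes on the 2 sides of the cluster differed. Cadm3, Ackr1, Mptx2, Olfr418 and Fcer1a, the 5 genes before Aim2, were listed at 0 for both antibodies in all libraries. Of the 5 genes after Ifi205, Olfr433 had Pol II at 1 h in WT (211.9, 200.1 and 202.5) and KO (135.7, 137.4 and 144.1), as had Olfr432 (85.49, 161.3 and 68.79 in WT and 131.2, 144.6 and 131.8 in KO), whereas Olfr430, Olfr429 and Olfr427 were listed at 0 for Pol II. Olfr433 and Olfr432 had no Pol II region in any library at 0 h. H3K27ac of Olfr433 went from 100.0, 86.28 and 97.30 at 0 h to 637.3, 634.4 and 624.8 at 1 h in WT, and the 1-h values of Ifi205 and Olfr432 were the same, so these are not separate measurements. Signal after LPS was thus also found past Ifi205.

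The input libraries, which carry no antibody, also differed at the end of the cluster. Over Ifi202b the KO inputs held 24.96, 29.72 and 19.41 normalized tags per kb of region at 0, 1 and 18 h and the WT inputs 12.23, 13.37 and 13.67, ratios of 2.04, 2.22 and 1.42. The median ratio over all genes with a value was 0.88, 0.92 and 0.80. Ifi202b had the highest ratio of all 5986 genes at 0 h and of all 7314 at 1 h, and 2654 of 2666 genes lay below it at 18 h. With 1 input per group there is no replicate check within a time.

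The higher KO input was not limited to Ifi202b. At 0 h the ratio was 1.39 for Ifi211 and 1.36 for Ifi203, and at 1 h 1.33 for Ifi203 and 1.08 for Ifi211, whereas Aim2 (0.88 and 0.84) and Ifi207 (0.89 and 0.84) lay below 1, as most genes did. At 18 h Ifi203 (0.82) and Ifi211 (0.72) lay below 1 too. The KO input at 18 h had 27554 regions with 6.18% of its tags, against 95554 regions and 19.8% in the WT input. Ratios at 18 h were lower across genes (median 0.80), and 1838 of 2666 genes lay below Ifi203 and 344 below Ifi211. They are therefore not on the same footing as those at 0 and 1 h. In 20-kb bins along the cluster, 4 of 26 bins with a value at 0 h had a KO input at least 1.5 times that of WT, all between 173900604 and 174000603, as had 2 of 31 bins at 1 h and 1 of 18 at 18 h. The strain of this chromosome segment in the KO animals is not given in the sources used here, so the loss of Nr4a1, which lies on another chromosome, and a strain difference of the segment cannot be told apart. The part of the input difference in the Pol II and H3K27ac values of Ifi202b, Ifi203 and Ifi211 was not tested.

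**Figure D5:**
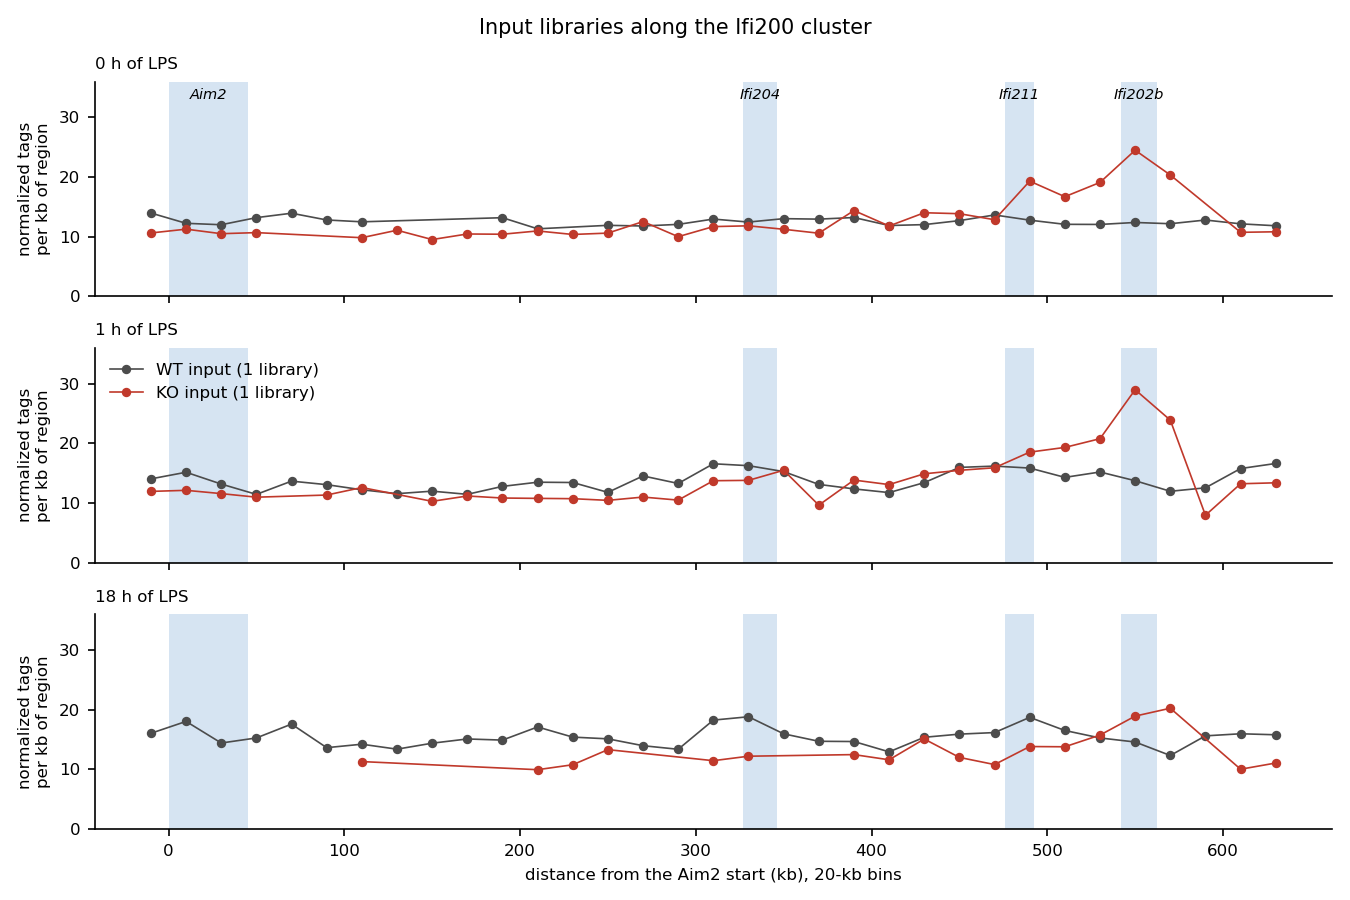
Input signal (normalized tags per kb of region, 20-kb bins with at least 1 kb in regions) along the cluster, against the distance from the Aim2 start in kb, for WT (grey) and KO (red) at 0, 1 and 18 h of LPS, 1 library each; lines join bins with a value and shading marks Aim2, Ifi204, Ifi211 and Ifi202b. KO is at least 1.5 times WT in 4 of 26 bins at 0 h, 2 of 31 at 1 h and 1 of 18 at 18 h, all at the Ifi211 to Ifi202b end.

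Pol II over Ifi202b was set beside the input of the same genotype and time, an alternative added after the data were seen. In KO the Pol II density within regions was 30.77 per kb at 0 h, 79.54 at 1 h and 217.5 at 18 h, which is 1.23, 2.68 and 11.2 times the input. In WT at 1 h it was 12.53, or 0.94 times the input. Each density is over the regions called in its own library, so these ratios do not compare the same bases. Over the whole gene window WT at 1 h had a mean of 61.0 Pol II tags against 226.3 in the input. The KO signal at 0 h was thus close to that of the input without antibody, and the signal at 18 h was well above it. The KO input at 18 h had the fewest regions of the inputs, so KO ratios at 18 h are not on the same footing as those at 0 and 1 h. Ifi203 in KO stood at 2.56, 3.03 and 14.8 times its input and in WT at 1.51, 13.4 and 5.35 times, and Aim2 at 1.71, 3.41 and 3.14 times in KO and 1.47, 2.65 and 4.51 times in WT.

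Some stretches of the cluster had Pol II regions in a single genotype. Stretches of at least 1 kb found in all 3 KO libraries and no WT library summed to 25.4 kb at 0 h, 13.8 kb at 1 h and 35.3 kb at 18 h of the 562.2 kb, and those in all 3 WT and no KO library to 19.5, 37.8 and 23.0 kb. The longest in KO at 0 h was chr1:173973368-173982844 in Ifi202b (9.48 kb), of which the KO input covered all 9.48 kb and the WT input 4.75 kb. The longest in WT at 0 h was chr1:173756888-173762613 inside Ifi204 (5.73 kb), of which the WT input covered 2.33 kb and the KO input 0 kb. At 1 h the longest in WT was chr1:173481239-173492555 over Ifi206 (11.3 kb), of which the WT input covered 4.56 kb and the KO input 0 kb. In these stretches of Ifi204 and Ifi206 the input coverage was larger in the genotype with Pol II, and elsewhere it was not. A WT-only stretch in Ifi209 at 0 h (2.08 kb) had 0.25 kb of WT input and 2.08 kb of KO input. A KO-only stretch at the 3′ end of Ifi202b at 18 h (6.28 kb) had 4.89 kb of WT input and 4.43 kb of KO input. The part of input coverage in the Pol II differences was not tested.

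Genes with the most similar Pol II pattern over the 18 libraries, among 13281 genes outside the family, were Mid1 (Pearson r = 0.947), Tmem267 (0.918) and Btaf1 (0.914) for Ifi202b, Pnp (0.980), Tspyl3 (0.979) and Plagl2 (0.976) for Ifi211, and Slamf7 (0.921), Ppp2r2a (0.919) and Ythdf1 (0.909) for Ifi204. The points share groups and library totals, so these values describe likeness only.

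Other genes linked to DNA sensing or inflammasomes changed with LPS in both directions. Of 15 genes listed for cytosolic DNA sensing, its signalling and regulation, or inflammasomes, Pol II was called higher at 10 and lower at 5 in WT at 1 h. The counts were 10 and 2 after 18 h there, and in KO 9 and 6 after 1 h and 11 and 2 after 18 h. Over all genes the shares called higher and lower were 18.6% and 68.2%, 33.2% and 33.3%, 20.7% and 61.7%, and 28.3% and 42.0%. For H3K27ac the counts were 10 and 2, 9 and 1, 10 and 2, and 10 and 2, against 25.9% and 29% of all genes, 23.4% and 26.5%, 20.6% and 26.2%, and 18.4% and 34.4%. Il1b, the cytokine cut by caspase-1, changed most at 1 h (5.99 ± 0.13 in WT and 6.27 ± 0.13 in KO for Pol II), and Zbp1, a sensor of Z-form nucleic acids, most at 18 h (4.69 ± 0.17 and 5.28 ± 0.17). The lists' medians for Pol II were 0.67, 0.81, 0.87 and 1.13 in that order.

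The interferon-response genes rose without exception among those tested. Of 10 genes 9 were tested, and 9 were called higher in each of the 8 comparisons, with Pol II medians of 3.85 and 5.25 in WT and 3.32 and 5.99 in KO at 1 and 18 h. Ifit1, which binds foreign RNA, rose by 5.06 ± 0.08 and 5.91 ± 0.08 in WT and by 5.52 ± 0.08 and 7.16 ± 0.08 in KO. The medians of the 8 members with a region in every library, which differ in 1 gene between the genotypes, were 2.59 and 2.28 in WT and 1.78 and 2.33 in KO and lay below those of this list and above those of all genes.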

How the data were processed

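ChIP-seq for Pol II and H3K27ac was done in WT and Nur77-KO macrophages at 0, 1 and 18 h of LPS, with 36 ChIP and 6 input libraries. Per the labels and methods, Skewer trimming by the authors came before HISAT2 2.1.0 alignment to mm10, and HOMER then removed duplicates and called broad regions in each library on its own, without input control. The deposited signal is tags per 10 M tags of the library in each region. Here it was shared by overlap with gene windows set on curated RefSeq transcripts of GRCm38.p6, whose 21 of 21 chromosome names match the files. limma 3.58.1 (R 4.3.3, Python 3.11.15) fitted 6 group means per antibody to log2(normalized tags + 10), with Benjamini-Hochberg adjustment over all genes tested. A gene was tested with a region in at least 2 of 3 libraries of either group, and called at an adjusted p under 0.05. The named genes are the members, the rest of the family, 5 flanking genes per side, up to 3 genes per list and Nr4a1. Members and lists were chosen with earlier results of these data known. KO was compared with WT by description only, and p-values of read counts are not given because whole reads could not be recovered. Scripts were tested on simulated data. Alternatives are given at the end. A marker list that was also computed is not reported here.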

Additional observations from a re-analysis of the deposited data

Results flagged for a closer look

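A signal appeared in the input libraries, which the comparisons of Pol II and H3K27ac do not use. Over Ifi202b the KO input held 2.04 times the tags per kb of region of the WT input at 0 h and 2.22 times at 1 h, above the 1.5-fold level that 1 of 5986 genes reached at 0 h and 2 of 7314 at 1 h. At 18 h the ratio was 1.42, where 9 of 2666 genes reached 1.5-fold. Each value rests on 1 library per genotype. The same genotype had Pol II and H3K27ac regions over Ifi202b at each time, and the part of the input difference in them was not tested.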

How the results depend on the processing

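Most values kept direction and call: of the alternatives for single members' changes with LPS, 867 kept both, 38 lost a call, 10 gained one and 14 changed sign, and of those for KO minus WT 457 moved by less than the spread, 124 moved more and 11 changed sign. Regions over most members overlap input regions, so leaving such regions out removed them: 2, 0, 1 and 1 members were then called for Pol II at 1 and 18 h in WT and 1 and 18 h in KO (both KO calls lower), 0 in each H3K27ac comparison, and 0 lay wholly above or below WT at any time. Aim2 Pol II in KO was then -0.50 at 1 and 18 h, and Ifi202b Pol II at 1 h was -0.45 for KO minus WT.

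Counting a region whole by its midpoint gave 4 members called for Pol II at 18 h in WT, 5 at 1 h and 5 at 18 h in KO, 5 for H3K27ac at 18 h in WT, and 0 and 1 members above WT in H3K27ac at 1 and 18 h. Signs then changed for Ifi211 (-2.68) and Ifi203 (-2.90) in Pol II at 18 h in WT, and in H3K27ac for Ifi203 at 1 h in WT (-0.0073), Mndal at 18 h in WT (-3.52) and Aim2 at 1 h in KO (-1.39). For KO minus WT they changed for Ifi204 at 0 h (3.22), Ifi207 (5.60) and Ifi204 (6.52) at 1 h in Pol II, and Ifi211 (-0.15), Ifi203 (1.13) and Ifi202b (-0.67) at 1 h in H3K27ac.

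A narrower window gave 1 member below WT at 0 h and 4 above at 18 h in Pol II, with Ifi209 at -0.073 at 1 h in KO and, for KO minus WT at 0 h, 0.071 for Ifi209 and 0.15 for Ifi204. Centring and quantile normalization each left 1 member above WT in Pol II at 1 h. Centring gave -0.16 for Aim2 there and 0.043 for Ifi203 H3K27ac at 18 h in KO. GENCODE positions, chosen after seeing the data, gave Mndal -0.059 for H3K27ac at 18 h in KO and 0.33 for Pol II KO minus WT at 18 h.

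Leaving out each replicate number gave 2 to 5 members called for H3K27ac at 1 h in KO, 3 to 5 below WT in Pol II at 0 h, and 2 to 4 above WT at 18 h for either antibody, with Ifi207 at -0.077 to 0.29 and Ifi202b at -0.058 to 0.053 for H3K27ac at 1 h in KO. Leaving out the first KO library at 1 h gave -0.060 and 0.016 there, and at 18 h gave 4 members above WT in H3K27ac. Leaving out KO replicates 2 and 3 at 1 h, chosen after seeing the data, gave 6 members called in place of 4. Same-numbered libraries did not deviate together (correlations of -0.41 to 0.074, 0 of 45 over 0.1 for each antibody), so the samples share only a number. A replicate block gave the same count of members called in 7 of 8 comparisons. In H3K27ac at 1 h in WT it gave 8 in place of 9, with Ifi202b, which had no region at 0 h, at an adjusted p of 0.0552. Without counts of reads, the depth behind a region listed at 0 is not known.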
